A study of Mus musculus with 19 samples.

Results

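The immunity-related GTPases (IRGs) are a family of GTP-binding proteins that mouse cells make in response to interferons. They are best known for cell-autonomous defence: effector IRGs coat the vacuole in which an intracellular parasite or bacterium lives and break it open, while regulatory IRGs sit on the cell's own membranes and keep the effectors inactive there. Both kinds depend on the machinery that conjugates ATG8 proteins, which they share with autophagy. The members described here are all rows of the deposited expression table named Igtp, Irgm1, Irgm2, Iigp1, Tgtp1, Tgtp2 or Ifi47, which is 7 of the 20408 genes in the table. Every one of the 7 passed the filter on low values, as did 14845 genes in all, although Tgtp1 reached 10 normalised counts in only 7 of the 19 mice.

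RNA was sequenced from the suprarenal abdominal aorta (SRA) of 19 male mice fed chow, after 24 h of infusion from an osmotic pump. The labels give the age of every mouse as 8 weeks. In the paper 8 weeks is the age at the start of tamoxifen injections, which a rest and then the infusion followed. The 4 groups were 5 saline-infused and 5 Ang II-treated IKKβ+/+ mice and 4 saline-infused and 5 Ang II-treated IKKβ-/- mice. All of them lacked ApoE, were on a C57BL6 background, carried SMA-CreERT2 and received tamoxifen, the IKKβ+/+ littermates included. In the IKKβ-/- mice both alleles of Ikbkb were floxed. The Cre is driven by the Acta2 promoter, so the deletion is aimed at smooth muscle cells and other cells of the vessel wall keep the gene. The labels give the Ang II dose as 500 to 1000 ng/min/kg. For the sequenced mice the paper names a single dose, at the upper end of that range. Values are normalised read counts, in which DESeq2 size factors scale the reads.

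Ikbkb averaged 673 ± 78.6 normalised counts (SD, n = 5) in saline-infused IKKβ+/+ mice and 515 ± 74.3 (SD, n = 4) in saline-infused IKKβ-/- mice, and 726 ± 46.3 and 548 ± 87.9 (SD, n = 5 each) with Ang II. The 8 smooth muscle markers summed to between 309864 and 647800 normalised counts in every mouse, with Acta2 and Myh11 high throughout. Depth ranged from 11382573 to 19906694 reads assigned to genes. Mice X2406 (IKKβ-/- with saline) and X2385 (IKKβ-/- with Ang II) stood apart, with 43.9% and 39.2% of their normalised counts in their 10 most abundant genes against 11.8% to 28.3% in the others. Results are therefore also given without them. Each group held its own run of mouse numbers and the labels name no batch, so any batch effect and the group effects cannot be told apart.

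The 2 classes of IRG differ in the phosphate-binding loop of the GTPase domain. Regulatory members (GMS proteins) carry methionine where nearly all other GTPases, and the effector members (GKS proteins), carry lysine. The stretches below, read from the longest reading frame of a Gencode M21 transcript of each gene, show that codon in capitals, and they sort the measured members into their classes.
Igtp: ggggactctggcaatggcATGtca
Irgm1: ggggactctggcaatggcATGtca
Irgm2: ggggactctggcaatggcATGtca
Tgtp1: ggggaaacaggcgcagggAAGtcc
Tgtp2: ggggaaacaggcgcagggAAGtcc
Ifi47: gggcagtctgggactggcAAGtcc
ATG encodes methionine and AAG lysine. Igtp (also called Irgm3), Irgm1 and Irgm2 had the same 24 bases, at positions 271 to 294 of the frame in Igtp and 247 to 270 in Irgm1 and Irgm2. Tgtp1 and Tgtp2, which encode Irgb6, were identical at positions 187 to 210, and Ifi47, which encodes Irgd, had a version of its own at positions 241 to 264. Iigp1 encodes Irga6, an effector, and its sequence is not shown.

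Of these genes 6 lie in 2 clusters on chromosome 11 of GRCm38. Irgm1 (ENSMUSG00000046879.7) spans 48861968 to 48871683 on the minus strand, Tgtp1 (ENSMUSG00000078922.9) 48985327 to 48994172 and Tgtp2 (ENSMUSG00000078921.3) 49057194 to 49064206 on the same strand, and Ifi47 (ENSMUSG00000078920.3) 49076587 to 49096974 on the plus strand. Igtp (ENSMUSG00000078853.8), at 58199556 to 58207591, and Irgm2 (ENSMUSG00000069874.7), at 58199618 to 58222782, overlap on the plus strand. Near-identical copies limit what can be said of Tgtp1 and Tgtp2: 75.9% of the 84-base windows (the read length) in Tgtp1 transcripts and 79.7% of those in Tgtp2 transcripts also occurred in another gene, the other Tgtp gene or Gm12185. The division of reads between them is uncertain. The share was 6.72% in Igtp and 3.91% in Irgm2, which share windows with each other, 1.195% in Ifi47, which shares them with Olfr56, and 0 in Irgm1 and Iigp1.

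Promoters were read from RefSeq (GRCm38.p6), which held 6 of the 7 members and 32851 promoters in all. Each ran from 250 bases before to 50 bases after the start that RefSeq gives. The RefSeq windows of Irgm1, Irgm2 and Tgtp1 lie inside the gene spans given above. The RefSeq starts of Irgm2 and Tgtp2 were not found in their Gencode M21 transcripts. Both strands were searched for the core of the interferon-stimulated response element (ISRE), which is GAAA, any 2 bases and GAAA, for the gamma-activated site (GAS), which is TTC, any 3 bases and GAA, and for a kappaB site, which is GGGA, any base and TTTCC. The windows below hold the matches in capitals and are printed on the strand of the gene, because these motifs are the ones through which interferon is known to reach IRG genes.
Irgm1: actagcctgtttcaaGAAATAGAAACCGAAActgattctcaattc
Tgtp1: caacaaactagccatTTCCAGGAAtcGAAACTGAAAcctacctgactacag
Tgtp2: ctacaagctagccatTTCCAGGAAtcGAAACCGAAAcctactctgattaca
Igtp: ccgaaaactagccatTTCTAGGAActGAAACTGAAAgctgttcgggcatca
Irgm2: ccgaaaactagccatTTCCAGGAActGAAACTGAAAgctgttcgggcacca
They lie at chr11:48871421-48871465, chr11:48992299-48992349 and chr11:49064258-49064308 on the minus strand and at chr11:58199496-58199546 and chr11:58214887-58214937 on the plus strand, in that order. In Tgtp1, Tgtp2, Igtp and Irgm2 the GAS stood 2 bases ahead of the ISRE core, and in Irgm1 a pair of ISRE cores overlapped. The ISRE core was present in 5 of the 6 promoters and in 3.44% of all promoters. The GAS was present in 4 of 6 and in 8.30% of all, and both motifs together in 4 of 6 and in 0.454% of all. None of the 6 held the kappaB letters, which 0.411% of all promoters held, and the Ifi47 window held none of the 3 motifs.

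In saline-infused IKKβ+/+ mice all members but Tgtp1 were clearly expressed. Per kilobase of exon (Gencode M21), the scale on which genes can be compared, Irgm2 had the highest level, with 161 ± 37.5 normalised counts per kb (SD, n = 5), followed by Igtp with 119.6 ± 40.9 and Iigp1 with 97.5 ± 34.6. Ifi47 had 76.5 ± 18.02 per kb and Irgm1 66.9 ± 7.46. Tgtp2 stood lower, at 24.1 ± 9.28 per kb, and Tgtp1 lowest, at 3.56 ± 3.42. The SDs of neighbours in this order overlapped among the first 5, so their order is loose. Tgtp2 lay below them, and Tgtp1 below Tgtp2, by more than the spread. The exon lengths include the stretches that Tgtp1 and Tgtp2 share with other genes, however. The levels per kb of both genes, and their places in this order, are therefore uncertain.

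The first question is what 24 h of Ang II did in mice with intact IKKβ. IRG transcripts were lower in the SRA of Ang II-treated than of saline-infused IKKβ+/+ mice: 6 of the 7 fell and none rose, where 8.66% of all genes tested passed the threshold in either direction and 4.33% fell. The threshold is an adjusted p under 0.1 (limma, Benjamini-Hochberg over 14845 genes) and a fold change above 1.2. The median log2 fold change of the 7 was -1.33, against 0.0056 over all genes tested. Effectors and regulators both fell, and in 5 genes every Ang II-treated mouse lay below every saline-infused mouse, a separation that 4.47% of all genes showed.

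Among the effectors, Iigp1 (ENSMUSG00000054072.12, chromosome 18 of GRCm38, 60376027 to 60392634 on the plus strand), whose product helps to disrupt the parasite vacuole, had 352, 392, 557, 725 and 814 normalised counts in the 5 saline-infused mice and 77.1, 132, 150.1, 191 and 264 in the 5 Ang II-treated mice. The groups did not overlap. Iigp1 fell by 1.83 ± 0.33 on the log2 scale (SE, limma, adjusted p = 0.00601), to 28.7% of its saline mean.
Tgtp2 had 46.2, 54.6, 55.5, 86.4 and 111 normalised counts with saline and 11.5, 11.8, 19.2, 24.1 and 25.8 with Ang II. Again all treated mice were below all controls, and the log2 fold change was -1.88 ± 0.38 (SE, limma, adjusted p = 0.0115), the most negative among the 7. Ifi47 had 122, 164, 219, 219 and 222 normalised counts with saline against 63.1, 83.5, 103, 109.7 and 121 with Ang II. The highest treated mouse came close to the lowest control without reaching it, and Ifi47 fell by 0.97 ± 0.29 on the log2 scale (SE, limma, adjusted p = 0.0564).
Tgtp1 was near the limit of detection, with 1.76, 3.33, 11.2, 11.4 and 29.4 normalised counts with saline and 0, 0.955, 5.34, 5.36 and 5.96 with Ang II. The groups overlapped, and its log2 fold change of -1.33 ± 0.996 did not pass (SE, limma, adjusted p = 0.483). Between 0 and 37 reads per mouse lay behind these values, and its 95% interval ran from -3.41 to 0.75.

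Among the regulators, Igtp, which sits on the endoplasmic reticulum and lipid droplets, had 164, 181, 210.4, 295 and 359 normalised counts with saline and 43.9, 70.7, 75.8, 95.4 and 112 with Ang II. The groups did not overlap, and the log2 fold change was -1.59 ± 0.30 (SE, limma, adjusted p = 0.00721), which left 32.9% of the saline mean. Irgm2, a regulator at the Golgi, had 451, 476, 592, 662 and 788 normalised counts with saline and 134, 249, 267, 270.04 and 439 with Ang II. All treated mice were lower, the highest of them only just, and Irgm2 fell by 1.19 ± 0.31 on the log2 scale (SE, limma, adjusted p = 0.0384).
Irgm1, which is also tied to autophagy and mitochondria, moved least. It had 319, 375, 405, 420.00 and 423 normalised counts with saline and 235, 243, 271, 271 and 374 with Ang II. Mouse X2356, at 374, lay within the saline range and the other 4 treated mice lay below it. The log2 fold change was -0.49 ± 0.16 (SE, limma, adjusted p = 0.0859), a drop to 71.7% of the saline mean.

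**Figure D1:**
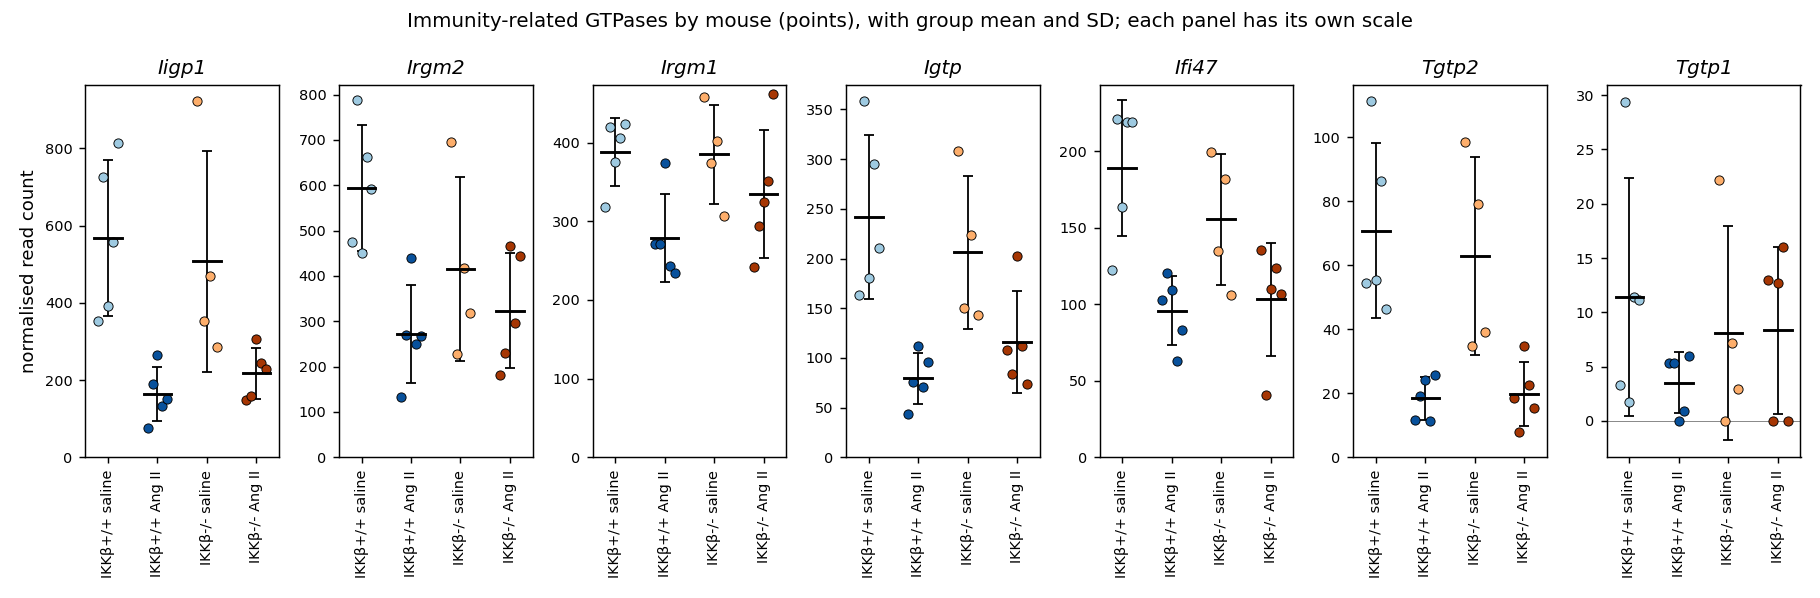
Normalised read count (linear axis, a scale for each panel) of the 7 immunity-related GTPases in each mouse. Points are mice, the thick bar is the group mean and the whiskers are the SD (n = 5, 5, 4 and 5 from left to right). In Iigp1, Irgm2, Igtp, Ifi47 and Tgtp2 the dark blue points (IKKβ+/+ with Ang II) lie below all light blue points (IKKβ+/+ with saline), while the orange and brown groups (IKKβ-/-) overlap in every panel.

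The count of 6 depends on few mice at its edge: without mouse X2350 (Ang II) it was 3, namely Igtp, Iigp1 and Tgtp2, which also stayed past the threshold when any other single mouse was left out. The share of all genes that passed dropped too, to 2.88%, and the 3 members lost kept log2 fold changes of -0.49 (Irgm1), -0.96 (Irgm2) and -1.01 (Ifi47). With the endothelial marker score as a covariate the same 3 genes passed, where 4.55% of all genes did, and Irgm1, Irgm2 and Ifi47 were at -0.42, -1.07 and -0.57. Without mice X2406 and X2385 the count was 6, but both are IKKβ-/- mice. Leaving them out cannot change the IKKβ+/+ fold changes and alters only the shared estimate of the spread.

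Other cell types differed between these groups as well. Fewer cells of a type and less RNA per cell cannot be told apart in whole tissue. The 8 endothelial markers summed to between 20854 and 35652 normalised counts with saline and between 11314 and 23092 with Ang II, and 2 of the 8, Tek and Cldn5, fell. Smooth muscle markers ran the other way: 3 of 8, Tagln, Cnn1 and Des, rose. Of 8 fibroblast markers 1, Lum, fell (limma; edgeR 2 and DESeq2 2, with Col3a1 added). Of the 8 estimates 7 were below 0 and 1 was above, with a median log2 fold change of -0.56. These markers summed to between 223150 and 347528 normalised counts with saline and between 147728 and 242703 with Ang II. The part of these shifts in the IRG result was not tested beyond the fit with the endothelial score. Lymphocytes are a source of interferon gamma, and 15 T and NK cell markers were looked at for that reason. Thy1, which fibroblasts and neurons also express, had between 180.4 and 318 normalised counts with saline and between 157 and 262 with Ang II, and the other 14 together had 48.6 to 103 and 26.8 to 174. Only 4 of the 15 had enough counts to be tested and none passed (limma; 1 at an unadjusted p under 0.05; edgeR 0, DESeq2 1). The marker that DESeq2 called was Cd4, with a log2 fold change of -1.87 (adjusted p = 0.0557). With edgeR Cd4 was at -1.84 (adjusted p = 0.110). Of the 4 limma estimates 3 were below 0 and 1 was above. Cd3e, a defining T cell gene, had between 0 and 6.65 normalised counts over all mice of the 4 groups. None of 10 macrophage and dendritic cell markers, 4 neutrophil markers, 2 B cell markers or 7 adipocyte markers tested passed with limma (at an unadjusted p under 0.05, 0, 0, 1 and 0). Of 5 neuron and Schwann cell markers 1, Uchl1, rose.

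The second question is whether the same infusion changed IRG transcripts when IKKβ was deleted in smooth muscle. In IKKβ-/- mice 2 of the 7, both effectors, fell with Ang II and none rose, where 5.29% of all genes tested passed in either direction and 2.69% fell. All 7 estimates were below 0, with a median log2 fold change of -0.65 against -0.0029 over all genes tested. In no member did the Ang II-treated and saline-infused groups separate, as they did downward in 2.88% of all genes.
Tgtp2 had 34.8, 39.2, 79.3 and 98.4 normalised counts in the 4 saline-infused IKKβ-/- mice and 7.94, 15.4, 18.5, 22.5 and 34.9 in the 5 Ang II-treated ones. The highest treated mouse, X2384, lay just above the lowest control, and the other 4 lay below. Tgtp2 fell by 1.62 ± 0.41 on the log2 scale (SE, limma, adjusted p = 0.0344). Iigp1 had 287, 352, 468 and 922 normalised counts with saline and 149, 159, 229, 244 and 307 with Ang II. Here too mouse X2384 alone entered the saline range, and the log2 fold change was -1.12 ± 0.35 (SE, limma, adjusted p = 0.0953).
Igtp had 143, 151, 223 and 308 normalised counts with saline and 73.3, 83.3, 108, 112 and 203 with Ang II. In this gene mouse X2384 lay well inside the saline range. The log2 fold change of -0.85 ± 0.32 did not pass (SE, limma, adjusted p = 0.161), and it did pass without mouse X2384. Ifi47 ranged from 106 to 199.8 with saline and from 40.5 to 136 with Ang II (log2 fold change -0.65 ± 0.30, SE, limma, adjusted p = 0.264). Irgm2 ranged from 229 to 695 and from 182 to 465 (-0.33 ± 0.33, SE, adjusted p = 0.662). Irgm1 ranged from 306 to 458 and from 242 to 461 (-0.22 ± 0.17, SE, adjusted p = 0.549), and its groups overlapped widely. Tgtp1 ranged from 0 to 22.2 and from 0 to 16.1, with an estimate of -0.05 ± 1.06 (SE, adjusted p = 0.989) whose sign changed between settings.

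The 2 calls in IKKβ-/- mice rest on a small saline group. Neither passed without mouse X2401, the saline-infused mouse with the highest Iigp1, Igtp and Tgtp2, nor without mouse X2406, nor without mice X2406 and X2385 together, where 3.07%, 2.93% and 1.99% of all genes passed, and Iigp1 also fell short without most of the other mice. Adipocyte markers moved with treatment in this genotype: 5 of 7 tested rose with Ang II, and the 8 listed summed to between 195 and 1082 normalised counts with saline and between 1499 and 27366 with Ang II. With the adipocyte score as a covariate 0 of 7 IRGs passed (adjusted p = 0.449 for Iigp1 and 0.328 for Tgtp2), but neither did any of the 14845 genes, 0% against 5.29% without it, and the log2 fold changes of Iigp1 and Tgtp2 were -1.25 and -1.75. Endothelial markers summed to between 13211 and 28200 with saline and between 7281 and 25917 with Ang II, and 1 of 8, Kdr, rose. With the endothelial score as a covariate 3 IRGs passed, with Ifi47 added.

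**Figure D2:**
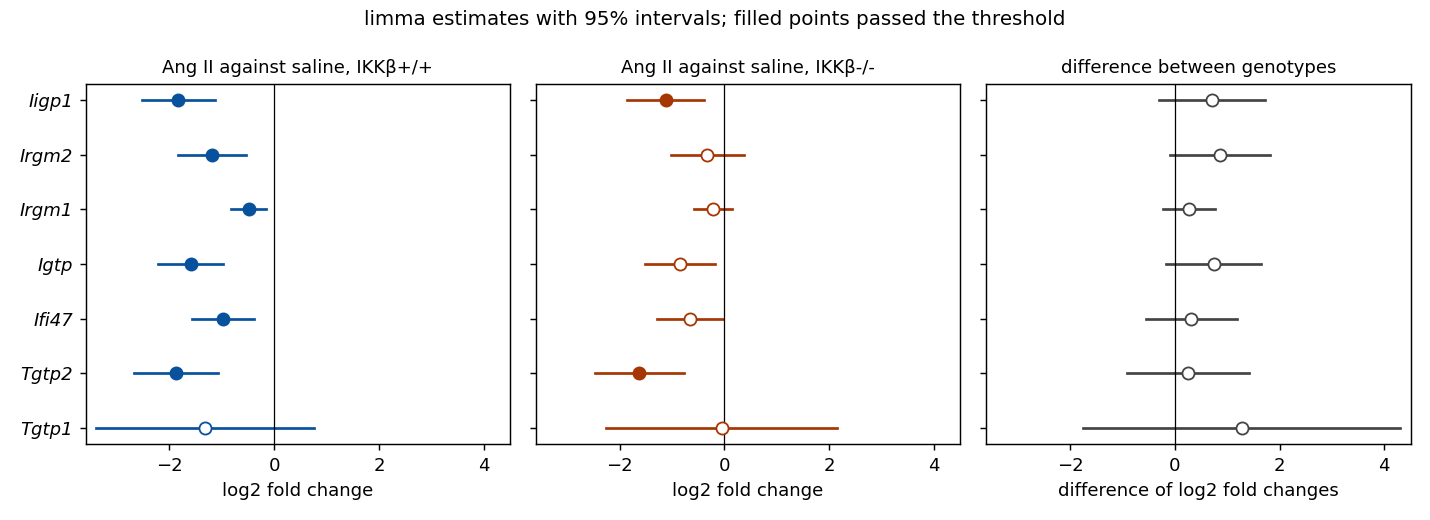
Log2 fold change of each immunity-related GTPase (points, filled where the threshold was passed) with its 95% interval from limma, for Ang II against saline in IKKβ+/+ mice (left), in IKKβ-/- mice (middle) and for the difference between these effects (right, IKKβ-/- minus IKKβ+/+). Filled points number 6 on the left, 2 in the middle and 0 on the right, where every interval includes 0.

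A gene past the threshold in a single genotype is not shown to differ between genotypes, so the difference itself was tested. Every estimate was less negative in IKKβ-/- than in IKKβ+/+ mice, and none of the 7 passed (limma; 0 of 7 at an unadjusted p under 0.05; 0 by edgeR and 0 by DESeq2). Over all genes 0 of 14845, or 0%, passed with limma, 1654 had an unadjusted p under 0.05, and edgeR called 3 and DESeq2 279. Irgm2 had the largest difference relative to its error, 0.86 on the log2 scale (95% interval -0.10 to 1.81, limma, adjusted p = 0.486). Igtp differed by 0.75 (-0.16 to 1.66), Iigp1 by 0.71 (-0.30 to 1.72) and Irgm1 by 0.27 (-0.22 to 0.76). Ifi47 differed by 0.32 (-0.55 to 1.19), Tgtp2 by 0.25 (-0.91 to 1.42) and Tgtp1 by 1.28 (-1.75 to 4.31). These intervals leave room for equal responses and for responses that differ by more than 1 on the log2 scale in each gene but Irgm1. With the endothelial score as a covariate the estimates for Tgtp2 and Ifi47 turned negative.

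IKKβ deletion as such was not accompanied by a detectable change in the family. With saline 0 of the 7 passed between IKKβ-/- and IKKβ+/+ mice (limma; 0 at an unadjusted p under 0.05; edgeR 0, DESeq2 0), where 5.47% of all genes did. All 7 estimates were below 0, from -0.76 for Tgtp1 and -0.61 for Irgm2 (95% interval -1.30 to 0.09) to -0.02 for Irgm1 (-0.38 to 0.34). Cell type markers differed between these saline groups. In IKKβ-/- mice 3 of 10 macrophage and dendritic cell markers, Adgre1, Cd68 and Itgax, were lower past the threshold (limma). So was 1 of 7 adipocyte markers, Pck1. All 7 adipocyte estimates were below 0, and their median was -2.36 on the log2 scale. In limma 5 of the 7 had an unadjusted p under 0.05. DESeq2 called 5, while edgeR called 1, Cfd (adjusted p = 0.0776), and not Pck1 (0.182). The 8 adipocyte markers listed summed to between 318 and 8735 normalised counts in IKKβ+/+ and between 195 and 1082 in IKKβ-/- mice. The part of the macrophage markers in the IRG estimates with saline was not tested. With Ang II again 0 of 7 passed (limma; 0 at an unadjusted p under 0.05; edgeR 0, DESeq2 0), where 0.128% of all genes did, and the estimates were all above 0, from 0.03 for Tgtp2 and Ifi47, whose signs changed between settings, to 0.51 for Igtp (-0.11 to 1.13) and Tgtp1 (-1.56 to 2.59). Both comparisons share their groups with the Ang II comparisons and add no separate evidence. In 6 of the 7 genes the means fell in a single order, from saline-infused IKKβ+/+ through saline-infused IKKβ-/- and Ang II-treated IKKβ-/- to Ang II-treated IKKβ+/+ mice. In Igtp, for example, they were 242 ± 82.7, 206 ± 76.9, 116 ± 51.3 and 79.5 ± 25.8 normalised counts (SD, n = 5, 4, 5 and 5). Only Tgtp1 departed from it, at 8.08 ± 9.87 in saline-infused and 8.33 ± 7.72 in Ang II-treated IKKβ-/- mice. The genotypes within a treatment, which are neighbours in this order, did not differ beyond their spread.

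The remaining genes of the IRG family were less uniform. Of 10 listed, 9 could be tested, and 3 fell with Ang II in IKKβ+/+ mice. Gm4951, a neighbour of Iigp1 on chromosome 18, went from 113 to 40.1 normalised counts (log2 fold change -1.59 ± 0.39, SE, limma, adjusted p = 0.0282). F830016B08Rik went from 32.03 to 8.49 (-1.85 ± 0.55, SE, adjusted p = 0.0574) and Gm4841 from 15.6 to 1.67 (-2.78 ± 0.76, SE, adjusted p = 0.0440), both at low counts. Gm12250, with -1.30 ± 0.52 (SE, adjusted p = 0.163), and Gm5431, with -0.71 ± 0.45 (SE, adjusted p = 0.389), did not pass. The other members were closer to 0: 9930111J21Rik1 at -0.29, 9930111J21Rik2 at -0.30, Gm12185 at -0.21 and Irgq, a relative that is not induced by interferon, at 0.18. Irgc1 was too low to be tested. In IKKβ-/- mice 0 of the 9 passed (limma; 0 at an unadjusted p under 0.05; edgeR 0, DESeq2 0), with Gm4951 at -0.83 and F830016B08Rik at -0.94. The difference between the genotypes passed in 0 of the 9 (limma; 1 at an unadjusted p under 0.05; edgeR 0, DESeq2 0).

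The guanylate-binding proteins (GBPs), large GTPases that interferon also induces, assist the IRGs at the vacuole. All 8 of the GBPs that could be tested, of 11 listed, fell with Ang II in IKKβ+/+ mice, and their median log2 fold change was -1.69. Among them Gbp4 went from 325 to 62.1 normalised counts (-2.36 ± 0.44, SE, limma, adjusted p = 0.00721) and Gbp5, which promotes inflammasome activity, from 251 to 78.1 (-1.86 ± 0.38, SE, adjusted p = 0.0115). Gbp8 (-2.44 ± 0.72, SE, adjusted p = 0.0573) was low in all groups. Gbp6 (-1.75 ± 0.45, SE, adjusted p = 0.0351), Gbp9 (-1.63 ± 0.32, SE, adjusted p = 0.0101) and Gbp2 (-0.55 ± 0.15, SE, adjusted p = 0.0375) also fell. In IKKβ-/- mice 4 of the 8 fell, Gbp3, Gbp4, Gbp5 and Gbp9 (edgeR called 3 and DESeq2 4), and the median was -1.11. Gbp4 was at -2.07 ± 0.47 (SE, limma, adjusted p = 0.0222) and Gbp5 at -1.69 ± 0.40 (SE, adjusted p = 0.0279).

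The rest of the pathway was followed from ligand to target. Interferon gamma signals through Ifngr1 and Ifngr2 and their JAK kinases and induces Irf1, a factor that drives IRG, GBP and antigen presentation genes. Of 11 ligands and receptors 6 were in the table, and Ifng and Ifnb1 were not analysed here. Ifngr2 fell in both genotypes, by 0.38 ± 0.10 in IKKβ+/+ (SE, limma, adjusted p = 0.0420) and by 0.35 ± 0.11 in IKKβ-/- mice (SE, adjusted p = 0.0855), and so did Il15, a cytokine that sustains NK cells, by 0.98 ± 0.31 and by 1.10 ± 0.32 on the log2 scale (SE, adjusted p = 0.0726 and 0.0728). DESeq2 called all 4 of these changes, and edgeR called Ifngr2 alone in IKKβ+/+ mice and neither gene in IKKβ-/- mice (adjusted p = 0.1102 for Ifngr2 and 0.101 for Il15). Ifngr1 was at -0.24 ± 0.12 in IKKβ+/+ mice (SE, adjusted p = 0.289).
Of 14 JAK-STAT and IRF factors 3 fell in IKKβ+/+ mice. Irf1 went from 531 to 261 normalised counts (log2 fold change -1.05 ± 0.19, SE, limma, adjusted p = 0.00663), Irf7 fell by 1.39 ± 0.37 (SE, adjusted p = 0.0384), and Ciita, the switch for MHC class II genes, fell by 1.47 ± 0.45 (SE, adjusted p = 0.0683). Nlrc5, which drives MHC class I genes, was at -0.76 ± 0.30 (SE, limma, adjusted p = 0.154). In IKKβ-/- mice limma called Ciita alone, at -1.51 ± 0.48 (SE, adjusted p = 0.0977), which neither edgeR (adjusted p = 0.202) nor DESeq2 (0.129) called, and Irf1 was at -0.11 ± 0.21 (SE, adjusted p = 0.835). The difference in Irf1 between the genotypes was 0.94 ± 0.28 on the log2 scale and did not pass (SE, limma, adjusted p = 0.269, with an unadjusted p of 0.00333), nor did it with edgeR (adjusted p = 0.223), while DESeq2 called it (adjusted p = 0.0934).
Of 9 feedback inhibitors 1, Usp18, fell in IKKβ+/+ mice (-1.22 ± 0.34, SE, limma, adjusted p = 0.0463), and 0 passed in IKKβ-/- mice (3 at an unadjusted p under 0.05; edgeR 0, DESeq2 0). Of 12 genes of ATG8 conjugation, the machinery the IRGs depend on, 1 rose in IKKβ+/+ mice, Gabarap, an ATG8 protein (0.35 ± 0.09, SE, limma, adjusted p = 0.0320), and 0 passed in IKKβ-/- mice (1 at an unadjusted p under 0.05; edgeR 0, DESeq2 0). Among all genes tested 8.66% passed in IKKβ+/+ and 5.29% in IKKβ-/- mice. In IKKβ+/+ mice 1 of 9 and 1 of 12 are near that share.

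Further targets of interferon moved down with the IRGs in IKKβ+/+ mice. Of 14 other interferon gamma targets tested, 9 fell, with a median log2 fold change of -0.76. They included the peptide transporter gene Tap1, which went from 208 to 114 normalised counts (-0.92 ± 0.22, SE, limma, adjusted p = 0.0217), the immunoproteasome gene Psmb9 (-1.24 ± 0.30, SE, adjusted p = 0.0259) and Cd274, which encodes PD-L1 (-0.99 ± 0.32, SE, adjusted p = 0.0793). Of 20 targets of type I interferon 9 fell (edgeR called 7 and DESeq2 10) and the median was -0.95. Ifit3 went from 307 to 86.6 normalised counts (-1.83 ± 0.37, SE, limma, adjusted p = 0.0108), Isg15 from 63.4 to 18.5 (-1.82 ± 0.37, SE, adjusted p = 0.0117) and Ifi44 from 52.0 to 14.8 (-1.86 ± 0.49, SE, adjusted p = 0.0375). In IKKβ-/- mice 1 of the 14 fell, Ido1 (-2.42 ± 0.58, SE, limma, adjusted p = 0.0273), and 0 of the 20 passed (4 at an unadjusted p under 0.05; edgeR 0, DESeq2 1). The medians there were -0.32 and -0.21.

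**Figure D3:**
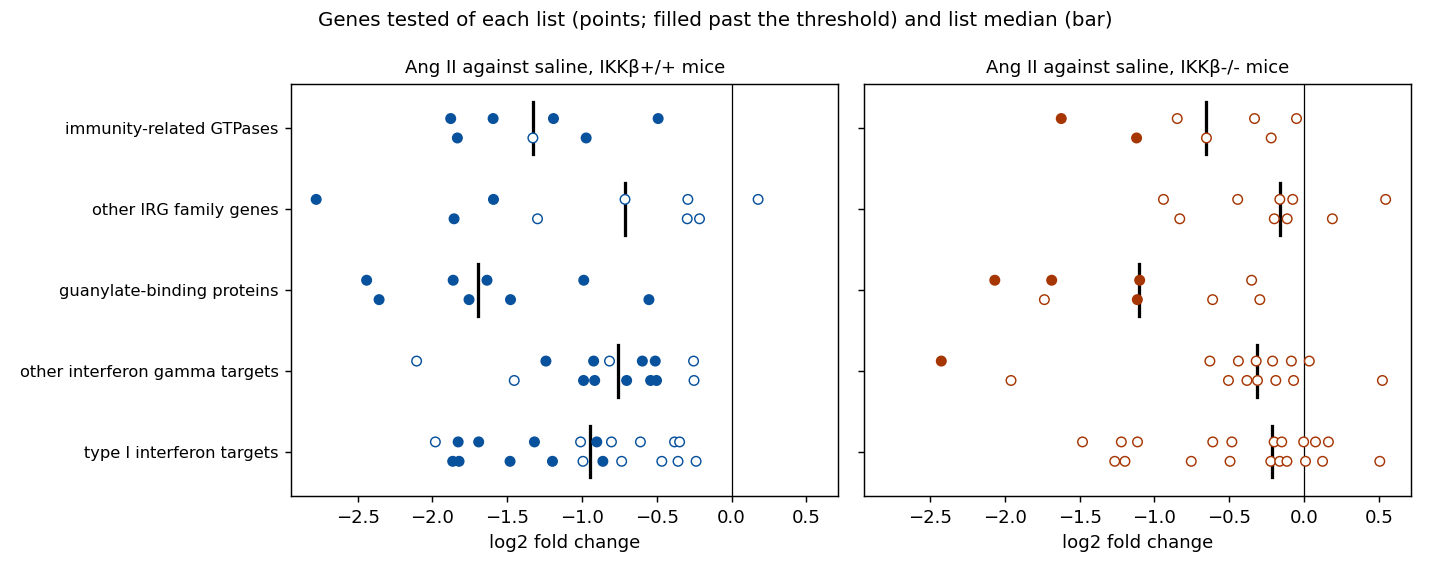
Log2 fold change with Ang II against saline of the genes tested in 5 lists, in IKKβ+/+ mice (left) and IKKβ-/- mice (right). Points are genes (filled past the threshold) and black bars are list medians; all 8 guanylate-binding proteins and 6 of 7 immunity-related GTPases are filled on the left, 4 and 2 on the right.

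The members varied together from mouse to mouse. Over the 19 mice, Pearson's r between the log2 values of the 15 pairs without Tgtp1 lay between 0.62 and 0.93, with a median of 0.79. With the group means subtracted it lay between 0.27 and 0.88, so the likeness was not only that of the groups. The 6 pairs with Tgtp1 had lower values, from 0.10 to 0.61. All of these points share the same libraries, and r is given as a description. The genes most like the mean of the members were chosen among 11416 genes with a mean of at least 50 normalised counts. They were Tap1 (r = 0.90), Gbp2, Psmb9, Gbp5, Gbp7, Gbp4, Gbp3, Gm4951, H2-K1 and Tnfsf10 (0.83), where the median gene had -0.04. With group means subtracted the order began with Tap1 (0.80), Nr1h3, Cd274, Tedc2, Zfp182, Trnau1ap, Gbp7, Zfand6 and Neu1 (0.76), and 2 genes, Tap1 and Gbp7, were in both sets of 10.

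**Figure D4:**
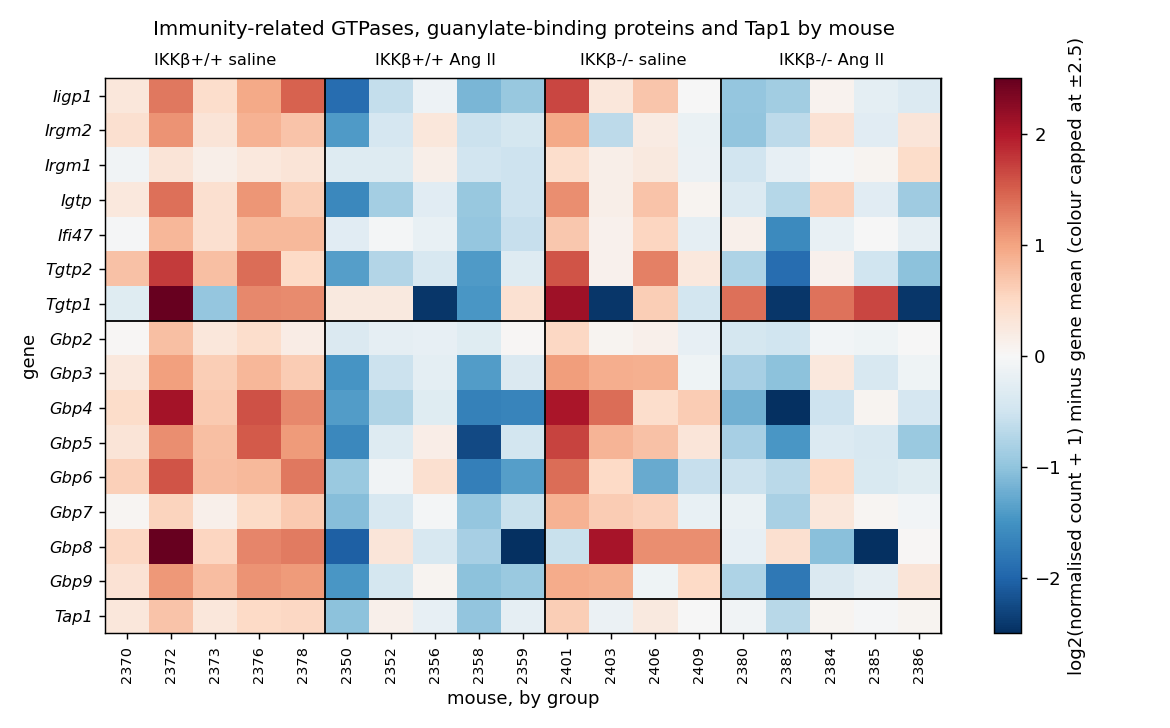
Log2(normalised count + 1) minus the mean of the gene over all 19 mice, for the 7 immunity-related GTPases, the 8 guanylate-binding proteins tested and Tap1 (rows), in each mouse (columns, by group). Red is above and blue below the mean of the gene, with colour capped at 2.5 on either side. Mice X2372 and X2401 are red in nearly all rows and mouse X2383 is blue in nearly all rows.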

How the data were processed

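Bulk RNA-Seq of 19 SRAs was read from 1 table. The authors prepared stranded poly(A) libraries, trimmed single reads of 84 bases with Trimmomatic 0.35, aligned them with STAR 2.7.1a to GRCm38 (Gencode M25) and normalized the gene counts with DESeq2 1.30.1. The signal deposited by the authors is this normalized count, the reads of a mouse divided by its size factor. Of these values 100% were whole multiples of 1 read, within 0.02 reads, so reads were recovered. Depth ranged from 11382573 to 19906694 reads assigned to genes, which limits the precision of genes with few reads.

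Genes that reached 10 normalized counts in 4 or more mice were compared on log2(normalized count + 1) with limma 3.58.1 in R 4.3.3 (trend), in 1 fit with a mean for each group. On this scale the change of genes with few reads is understated. Tests were two-sided, adjusted by the Benjamini-Hochberg method over 14845 genes, and a gene passed when its adjusted p was below 0.1 and its fold change exceeded 1.2. The fit was checked on simulated data. Members were named in all comparisons, and so was every detected gene among the further IRG genes. From each other list up to 5 genes past the threshold were named together with fixed pathway genes. The text leaves out several of the genes that the rule selects, among them Xaf1, Psmb8, Ifnar1 and Ptpn6. The members and lists were chosen with earlier results of these data known. Promoters are from RefSeq, and transcripts are from Gencode M21, in which 97.2% of the table's gene identifiers were found with the same version and coordinates. Exon lengths are the union of a gene's Gencode M21 exons.

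Alternatives were a pseudocount of 4, no filter, only the groups compared in the fit, TMM scaling, edgeR 4.0.16 and DESeq2 1.42.0 on the recovered reads, array weights, stricter thresholds, Tgtp1 and Tgtp2 summed, marker scores as covariates and each mouse left out. The endothelial covariate and the fit without 2 mice were chosen after seeing the data.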

Additional observations from a re-analysis of the deposited data

Results flagged for a closer look

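Within the 4 groups, each member's highest and lowest mouse was compared with the rest of its group, in 28 groups of values, where chance alone marks about 1 in 20. A single value stood apart by this measure: Irgm1 in the Ang II-treated IKKβ+/+ mouse X2356, at 374 normalised counts, with the next highest mouse at 271 and the lowest at 235. This mouse also had the highest Irgm2 of its group, at 439, and the highest Igtp, at 112. No difference between the genotypes in the effect of Ang II passed the test for any member.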

How the results depend on the processing

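In IKKβ+/+ mice the count of IRGs past the threshold with Ang II was 6 and stayed between 4 and 6 under the alternatives, with the exception of 3 with the endothelial score as a covariate (4.55% of all genes passed, against 8.66%), and it ranged from 3 (without mouse X2350) to 6 when each mouse was left out. In IKKβ-/- mice the count was 2, and it was 1 with no filter, at an adjusted p under 0.05, with Tgtp1 and Tgtp2 summed or with the T and NK cell score, 0 with only the groups compared, with the adipocyte score or without the 2 mice of highest normalized total (settings in which 1.99%, 0% and 1.99% of all genes passed, against 5.29%), and from 0 (without mouse X2401 or X2406) to 3 (without mouse X2384) when each mouse was left out. The cause was not tested. The counts for the difference between the genotypes and for the genotypes with saline or Ang II were 0 under every alternative run, from 0 to 0 when each mouse was left out. No paired analysis was possible because the groups share no mouse numbers.

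Directions that turned belonged to estimates that did not pass and whose 95% intervals included 0. Not all of them were near 0: Tgtp1 between the genotypes with saline was at -0.76. Tgtp1 with Ang II in IKKβ-/- mice was 0.047 with a pseudocount of 4, 0.017 with edgeR, 0.033 with DESeq2, 0.33 with the T and NK cell score, and -0.85 to 0.67 with each mouse left out. With the endothelial score the difference between the genotypes was -0.16 for Tgtp2 and -0.15 for Ifi47. Between the genotypes with saline, Irgm1 was 0.066 and Iigp1 0.11 with array weights, Ifi47 was 0.0053 with the T and NK cell score, Irgm1, Tgtp2 and Ifi47 were 0.056, 0.13 and 0.12 with the endothelial score, and Irgm1, Tgtp1 and Tgtp2 ranged from -0.11 to 0.085, -1.48 to 0.031 and -0.48 to 0.0096 with each mouse left out. With Ang II, Tgtp2 and Ifi47 were -0.024 and -0.0070 with array weights, -0.016 and -0.036 with the adipocyte score, -0.024 and -0.029 with the endothelial score, -0.049 and -0.060 without the 2 mice of highest normalized total, and -0.20 to 0.30 and -0.11 to 0.34 with each mouse left out. The depth behind Tgtp1, and the reads it shares with Tgtp2, limit both genes. TMM scaling changed no call and moved the median of all genes by under 0.1 on the log2 scale.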

Other observations

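In Ang II-treated IKKβ-/- mice the IRGs of single mice spread widely. The 7 members summed to 814 normalised counts in mouse X2383 and 848 in mouse X2380, and to 1457 in mouse X2384, where the 4 saline-infused IKKβ-/- mice had sums of 1203, 1275, 1780.0 and 2703. The sums of the Ang II-treated IKKβ+/+ mice were 646, 770.1, 863, 953 and 1323, all below the lowest of their saline-infused controls, at 1491.

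The means of Irf1 and Iigp1 over the groups are set side by side without a test. In Irf1, which encodes an inducer of IRG genes, the mean with saline was 531 normalised counts in IKKβ+/+ and 384 in IKKβ-/- mice, and with Ang II it was 261 and 360.2. Iigp1 had means of 568, 507, 163 and 218 in the same order.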
